A study of Mus musculus with 11 samples.

Results

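The insulin-like growth factor (IGF) genes described here are 6 binding proteins (Igfbp2, Igfbp3, Igfbp4, Igfbp5, Igfbp6 and Igfbp7), the ligand Igf1 and its receptor Igf1r. They were taken by symbol from the deposited expression files, where they make up 8 of 45886 genes, and all 8 passed the filter on low values. RNA from a pull-down meant for ribosomes of endothelial cells was sequenced in 11 libraries from C57BL/6 mice of 4 groups. These were GL261 tumours of Eltd1-/- mice, called knockout tumours (n = 2), GL261 tumours of wild type mice (n = 3), healthy brain of Eltd1-/- mice (n = 3) and healthy brain of wild type mice (n = 3). GL261 is a mouse glioma cell line, and the tumours were grown in the brain of adult mice. Mice of every group carried a ribosomal protein, L10a, fused to eGFP and driven by the VE-cadherin promoter, which is active in endothelial cells, and tagged ribosomes were pulled down from the tissue with an antibody against GFP. By the protocol a group has 3 mouse samples, of which 2 were at hand for knockout tumour. Expression is given in FPKM, sequenced fragments scaled by transcript length and by the mapped fragments of the library, so that levels of different genes can be set side by side per length.

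IGF1 and IGF2 are growth factors that signal through the receptor tyrosine kinase IGF1R to the PI3K, Akt and mTOR pathway. Binding proteins hold the ligands outside the cell, lengthen their life in blood and limit or direct their access to the receptor, and several also act on cells or on the matrix without a ligand. Endothelial cells make several of these binding proteins, and IGFBP7 is known as a protein of the vascular basement membrane.

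Some facts of the whole series bear on every value below. The sum of FPKM ran between 477911 and 641665 per library, and read depth is unknown because the files hold no counts. Wild type tumour 2 listed 8979 genes above 0, against 11783 to 15434 in the other libraries, so its zeros may be failed estimates. The 13 endothelial marker genes, among them Pecam1, Cdh5 and Cldn5, summed to 580 to 696 FPKM in knockout tumours, 301 to 812 in wild type tumours, 1450 to 2015 in knockout brain and 1341 to 1535 in wild type brain, and none was at 0 in a whole group. The 10 neuron markers summed to 680 to 1387, 97.7 to 2888, 4664 to 5911 and 5276 to 6379 FPKM in the same groups. The 14 microglia and macrophage markers summed to 298 to 309 and 143 to 242 FPKM in knockout and wild type tumours, against 39.8 to 59 and 47.4 to 64.6 FPKM in knockout and wild type brain. Transcripts that mark other cells were thus present in these libraries. Levels of the IGF genes therefore cannot be assigned to endothelial cells alone. Adgrl4, the current symbol of Eltd1, had 11.5 and 5.82 FPKM in knockout tumours against 45.0, 192 and 27.4 FPKM in wild type tumours, and 21.6, 23.6 and 22.2 FPKM in knockout brain against 166, 82.7 and 153 FPKM in wild type brain, so it was lower in each knockout library than in any wild type library of the same tissue.

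Tumour was compared with brain to ask how the IGF genes differ between the pull-down libraries of tumours and of healthy brain. Igfbp3 was the one gene of the 8 that was higher in tumour in both genotypes, by 7.3 times in knockout mice and 3.61 times in wild type mice as a ratio of mean FPKM. In wild type mice Igf1r and Igfbp4 were lower in tumour. The tests used limma on log2(FPKM + 1), with p-values adjusted over all 15607 tested genes and a threshold of 0.05, and log2 changes on this scale understate changes of low values. In wild type mice 3 of the 8 genes passed, 1 higher and 2 lower in tumour, where 19.4% of all tested genes passed, 7.7% higher and 11.7% lower. In knockout mice 1 of 8 passed, where 7.09% of all genes did, and averaged over the genotypes 2 of 8 passed, where 30.2% of all genes did. The median log2 change of the 8 genes was -1.45 in wild type, -0.22 in knockout and -0.84 averaged, against -0.26, -0.18 and -0.25 over all tested genes. In bulk libraries such as these, fewer cells of a type and less RNA per cell cannot be told apart.

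**Figure D1:**
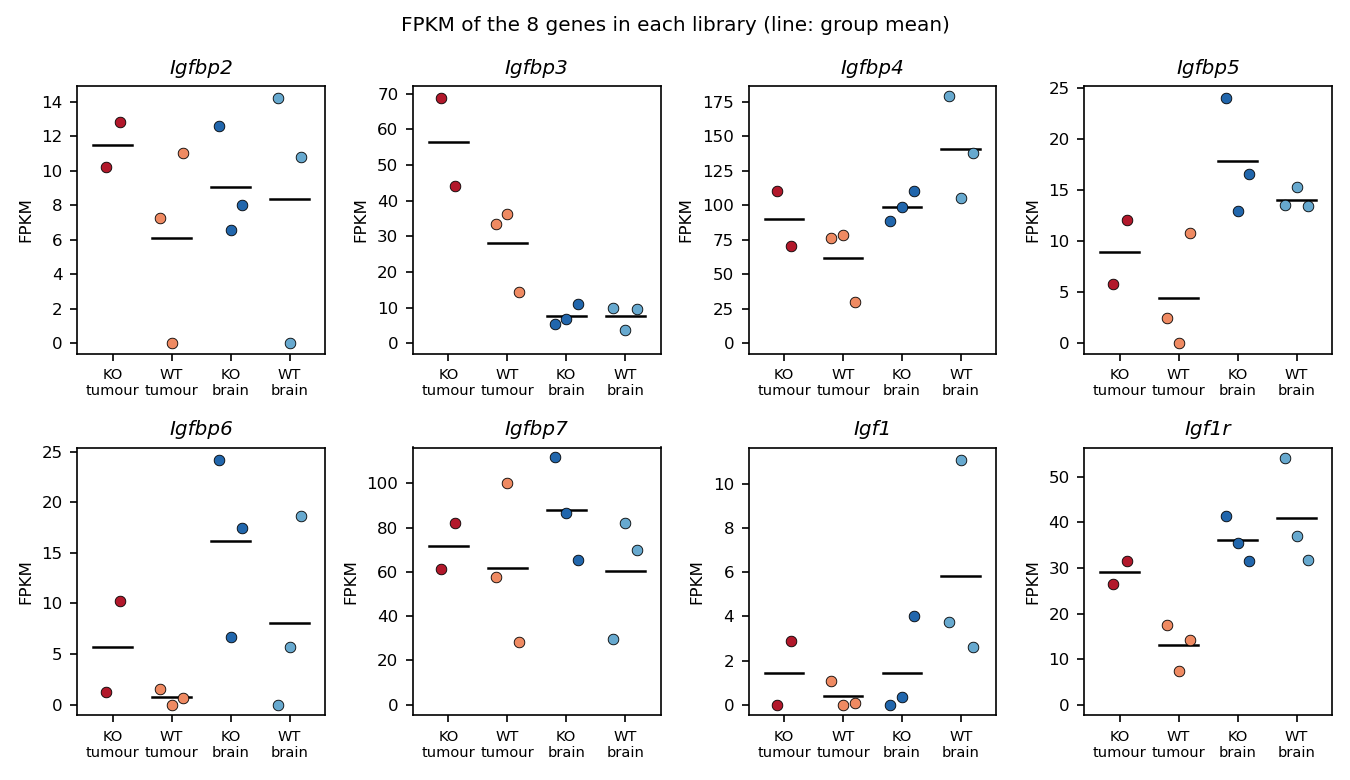
FPKM (vertical axes, linear, each with its own range) of the 8 IGF genes in every library, by group, with a line at the group mean; KO is Eltd1-/- and WT is wild type. All 5 tumour libraries lie above all 6 brain libraries for Igfbp3, between 14.5 and 68.9 FPKM against 3.69 to 11.1 FPKM.

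Igfbp3 encodes the main carrier of IGFs in blood. Its promoter is shown because it is the gene whose difference between tissues passed in both genotypes, and those of Igfbp4 and Igf1r because these passed in wild type mice. The windows hold 250 bases before and 50 bases after a transcription start of the RefSeq annotation of GRCm38.p6, written 5′ to 3′ on the gene's strand, at chr11:7213874-7214173 (minus strand) for Igfbp3, chr11:99040994-99041293 (plus strand) for Igfbp4 and chr7:67952007-67952306 (plus strand) for Igf1r. Capitals mark TATATA in Igfbp3, TATAAA in Igfbp4 and GGGCGG, the GC box, in Igf1r.
Igfbp3: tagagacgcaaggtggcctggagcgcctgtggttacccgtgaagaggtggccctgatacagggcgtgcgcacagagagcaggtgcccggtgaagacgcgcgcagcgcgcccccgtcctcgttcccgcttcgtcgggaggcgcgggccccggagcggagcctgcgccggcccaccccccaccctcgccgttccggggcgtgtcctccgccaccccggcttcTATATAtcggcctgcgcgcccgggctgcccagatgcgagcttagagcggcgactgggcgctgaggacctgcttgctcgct
Igfbp4: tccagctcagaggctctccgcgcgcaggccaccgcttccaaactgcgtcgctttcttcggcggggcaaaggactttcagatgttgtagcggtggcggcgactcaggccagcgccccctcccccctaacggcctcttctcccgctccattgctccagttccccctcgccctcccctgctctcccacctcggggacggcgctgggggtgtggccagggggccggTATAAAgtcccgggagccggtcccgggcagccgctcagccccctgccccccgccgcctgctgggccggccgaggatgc
Igf1r: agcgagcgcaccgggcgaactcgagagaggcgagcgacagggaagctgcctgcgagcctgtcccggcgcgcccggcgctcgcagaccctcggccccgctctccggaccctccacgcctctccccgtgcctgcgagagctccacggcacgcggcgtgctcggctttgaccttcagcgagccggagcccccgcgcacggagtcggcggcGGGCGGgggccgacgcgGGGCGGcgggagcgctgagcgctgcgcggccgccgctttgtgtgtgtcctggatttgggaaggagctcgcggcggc
TATATA began 30 bases before the start used for Igfbp3, and TATAAA began 28 bases before that used for Igfbp4. Both starts lie inside the annotated genes, which span chr11:7206086-7215498 for Igfbp3 and chr11:99040005-99052655 for Igfbp4. They are thus not the outermost annotated starts of these genes. The Igf1r window held neither of these and carried GGGCGG at 43 and 26 bases before the start. Read on both strands, TATATA occurred in 5.67% of 32851 windows of the same length, TATAAA in 13.6%, GGGCGG in 35.7%, CCAAT in 37.4% and ACGTG, the core of a hypoxia response element, in 19.6%. CCAAT and ACGTG were in none of the 3 windows shown. All 3 windows were rich in G and C, at 71.7%, 71.3% and 76% for Igfbp3, Igfbp4 and Igf1r, where the median window had 52.7%. These matches are letters in a window, and nothing about binding was measured.

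Igfbp3 had 68.9 and 44.1 FPKM in knockout tumours, against 5.35, 6.73 and 11.1 FPKM in knockout brain. It had 33.5, 36.2 and 14.5 FPKM in wild type tumours, against 10.0, 3.69 and 9.61 FPKM in wild type brain. Every tumour library was above every brain library, and the lowest tumour value, wild type tumour 3, was the closest to the brain range. Averaged over the genotypes the log2 change was 2.23 (SE 0.40, 95% interval 1.35 to 3.12, adjusted p = 0.0023, limma), with means of 39.4 ± 19.7 FPKM in tumours (SD, n = 5) and 7.75 ± 2.94 FPKM in brain (SD, n = 6). In knockout mice it was 2.74 (SE 0.60, adjusted p = 0.0204, limma) and in wild type mice 1.73 (SE 0.54, adjusted p = 0.0443, limma). The averaged call held without any single library, with log2 changes of 2.03 to 2.43. The wild type call was lost without any 1 of 10 of the 11 libraries, with adjusted p up to 0.129 and log2 changes of 1.32 to 1.94, and held without wild type tumour 3, at 2.13. The knockout call was lost without knockout tumour 1 (2.42, adjusted p = 0.238), knockout tumour 2 (3.05, adjusted p = 0.0933), knockout brain 1 (2.53, adjusted p = 0.0697) or knockout brain 2 (2.68, adjusted p = 0.0618). With the mean of the neuron markers as a covariate the averaged change was 1.13 and no longer passed (adjusted p = 0.731, limma). The neuron markers themselves had a median averaged change of -3.09. With them as a covariate 76 of 15607 tested genes passed averaged over the genotypes, against 4712 without. The lost call therefore cannot show whether neuron transcripts have a part in the Igfbp3 difference. The microglia and macrophage marker sums given above were also higher in every tumour library than in any brain library, and their part in the Igfbp3 difference was not tested.

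Igfbp4, which binds IGFs and holds them from the receptor until the protease PAPP-A cleaves it, was among the 2 highest of the 8 genes by mean FPKM in every group. It had 110 and 70.4 FPKM in knockout tumours, against 88.5, 98.8 and 110 FPKM in knockout brain, and these groups overlapped. Wild type tumours had 76.5, 78.6 and 29.8 FPKM, against 179, 105 and 138 FPKM in wild type brain, with every tumour below every brain library. The log2 change was -1.27 in wild type mice (SE 0.40, adjusted p = 0.0471, limma) and -0.16 in knockout mice (SE 0.45, 95% interval -1.15 to 0.82, adjusted p = 0.869, limma). The wild type call was lost without any 1 of 10 of the 11 libraries, with adjusted p between 0.0559 and 0.134, and the largest move was to -0.82 without wild type tumour 3 (adjusted p = 0.0933).

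Igf1r, the tyrosine kinase receptor of the ligands, had 26.5 and 31.6 FPKM in knockout tumours, against 41.3, 35.4 and 31.6 FPKM in knockout brain. Wild type tumours had 17.4, 7.35 and 14.3 FPKM, against 54.1, 37.1 and 31.7 FPKM in wild type brain. The wild type tumours were the lowest 3 of the 11 libraries, and every tumour library was below every brain library, though the nearest knockout pair differed only past the third digit. In wild type mice the log2 change was -1.62 (SE 0.41, adjusted p = 0.0184, limma), from means of 13.0 ± 5.13 FPKM in tumours and 41.0 ± 11.7 FPKM in brain (SD, n = 3 each). In knockout mice it was -0.30 (SE 0.45, 95% interval -1.29 to 0.69, adjusted p = 0.735, limma), and averaged over the genotypes -0.96 (SE 0.30, adjusted p = 0.0331, limma). The wild type call was lost without wild type brain 1 (-1.41, adjusted p = 0.0615). The averaged call was lost without knockout tumour 1 (-0.90, adjusted p = 0.124), knockout tumour 2 (-1.02, adjusted p = 0.0794), wild type brain 1 (-0.86, adjusted p = 0.0651) or any of the 3 knockout brains (-0.91, -0.97 and -1.01, adjusted p = 0.0709, 0.0596 and 0.0531). When libraries were scaled to 10 endothelial genes, neither call held, and the averaged change turned to 0.19 (adjusted p = 0.747).

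**Figure D2:**
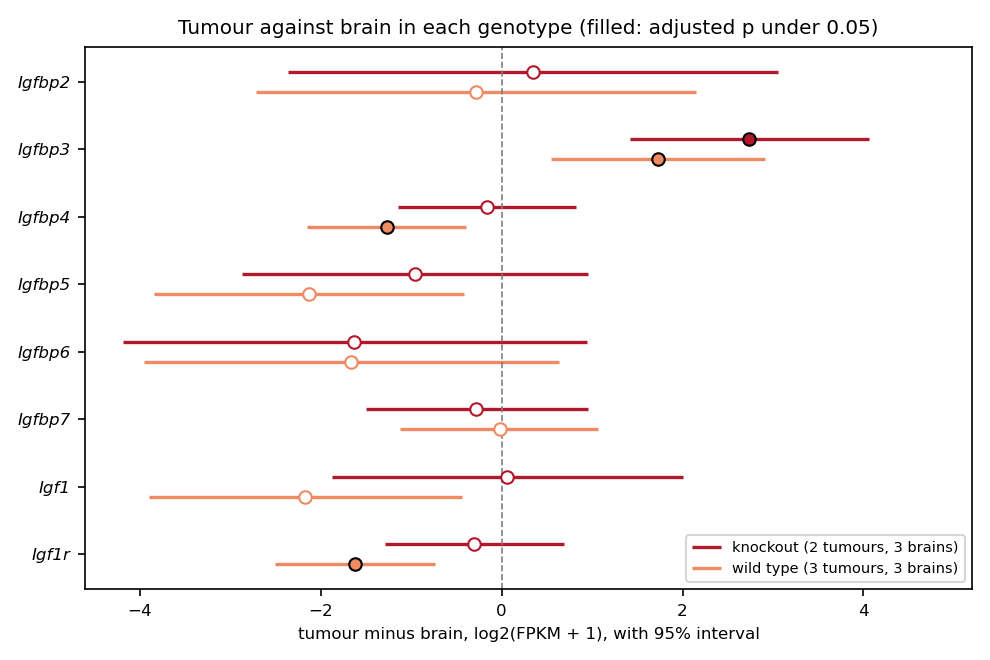
Log2 change of tumour minus brain on the log2(FPKM + 1) scale (horizontal axis) with its 95% interval for each of the 8 genes, knockout above wild type; filled points passed an adjusted p of 0.05. Igfbp3 is filled in both genotypes at 2.74 and 1.73, and Igfbp4 and Igf1r are filled in wild type at -1.27 and -1.62.

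The other binding proteins did not pass in any contrast between tissues. Igfbp5, which binds to extracellular matrix as well as to IGFs, had 5.79 and 12.1 FPKM in knockout tumours against 24, 13.0 and 16.6 FPKM in knockout brain. It had 2.46, 0 and 10.8 FPKM in wild type tumours against 13.5, 15.3 and 13.4 FPKM in wild type brain. Every tumour library was below every brain library, as for Igf1r, while Igfbp3 was the one gene with every tumour library above, which makes 3 of 8 genes without overlap where 21% of all tested genes had none. The log2 change of Igfbp5 was -1.54 averaged (SE 0.59, adjusted p = 0.0663, limma) and -2.13 in wild type (SE 0.78, adjusted p = 0.077, limma). Without wild type tumour 3 both passed, at -1.99 averaged (adjusted p = 0.0077) and -3.02 in wild type (adjusted p = 0.00749). Without wild type tumour 2, where it was listed at 0, neither passed, at -1.10 averaged (adjusted p = 0.0706) and -1.24 in wild type (adjusted p = 0.189).

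Igfbp7, a distant relative of the other binding proteins with low affinity for IGFs, had 61.2 and 82.1 FPKM in knockout tumours against 112, 86.7 and 65.4 FPKM in knockout brain. Wild type tumours had 57.6, 100 and 28.2 FPKM, against 29.8, 81.9 and 69.9 FPKM in wild type brain. The groups overlapped in both genotypes, and the averaged log2 change was -0.15 (SE 0.38, 95% interval -0.97 to 0.67, adjusted p = 0.792, limma).

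Igfbp2, a binding protein also made by glial and glioma cells, had 10.2 and 12.8 FPKM in knockout tumours against 12.6, 6.55 and 8.03 FPKM in knockout brain. It was listed at 7.28, 0 and 11.0 FPKM in wild type tumours and at 14.2, 0 and 10.8 FPKM in wild type brain. Groups overlapped throughout, and the averaged change was 0.03 with a wide interval of -1.79 to 1.85. Igfbp6, which prefers IGF2 over IGF1, had 1.21 and 10.2 FPKM in knockout tumours against 24.2, 6.71 and 17.5 FPKM in knockout brain, and 1.51, 0 and 0.654 FPKM in wild type tumours against 0, 5.69 and 18.6 FPKM in wild type brain. Its averaged change was -1.64 (SE 0.79, adjusted p = 0.138, limma). Without wild type brain 1, the brain library listed at 0, this became -2.23 and passed (adjusted p = 0.0273), and without knockout tumour 1 it was -1.06 (adjusted p = 0.438).

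Igf1, the ligand, was the lowest of the 8 genes per length in every group. It was listed at 0 and 2.90 FPKM in knockout tumours, against 0, 0.349 and 4.00 FPKM in knockout brain. In wild type tumours it was listed at 1.08, 0 and 0.0968 FPKM, against 3.74, 11.1 and 2.63 FPKM in wild type brain. The wild type groups did not overlap, as in 32.5% of all tested genes, with a log2 change of -2.17 (SE 0.79, adjusted p = 0.0748, limma), and in knockout mice the change was 0.06 (95% interval -1.87 to 2.00). Igf1 overlaps the antisense gene Igf1os by 5129 bases on chromosome 10 in the RefSeq table of GRCm38.p6.

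The make-up of the binding protein transcripts differed between the tissues in the share of Igfbp3. The 6 binding proteins summed to 232 and 257 FPKM in the knockout tumours and 94.9 to 215 FPKM in wild type tumours, against 218 to 267 FPKM in knockout brain and 211 to 260 FPKM in wild type brain. Igfbp3 made up 19.0% to 26.8% of that sum in knockout tumours and 15.2% to 18.8% in wild type tumours, against 2.00% to 4.86% in knockout brain and 1.75% to 4.07% in wild type brain. Its level over that of Igfbp4, a ratio within a library that no scaling between libraries alters, was 0.438 to 0.626 in tumours and 0.0353 to 0.101 in brain. Igfbp4 and Igfbp7 together still held 61.1% to 83.2% of the sum in tumours and 75.2% to 88.3% in brain. By mean FPKM, Igfbp3 ranked after Igfbp4 and Igfbp7 in both tumour groups, whereas in both brain groups only Igf1 had a lower mean. Among its neighbours in this order, its range overlapped that of Igfbp7 in knockout tumours, Igfbp4 and Igf1r in wild type tumours, Igfbp2 in knockout brain, and Igfbp6 and Igf1 in wild type brain. It did not overlap Igf1r in knockout tumours or Igf1 in knockout brain.

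**Figure D3:**
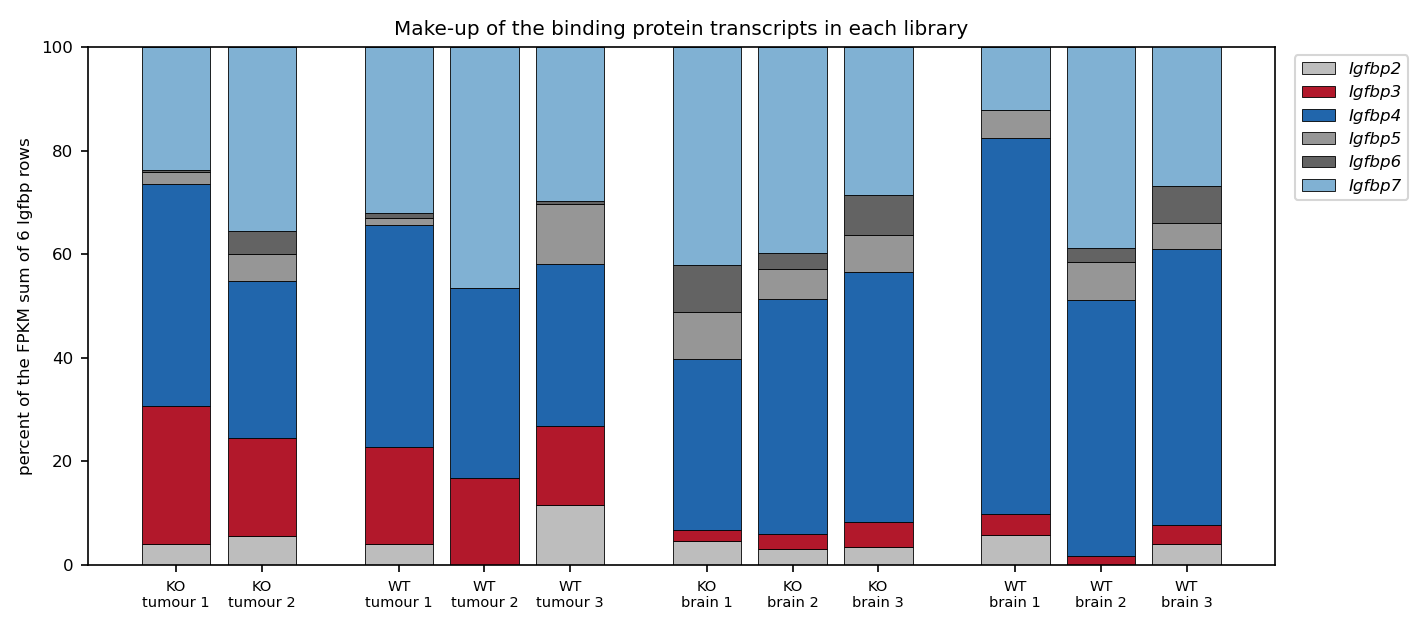
Share of each of the 6 binding proteins in their summed FPKM (vertical axis, percent) for each of the 11 libraries, 1 bar per library. The Igfbp3 segment spans 15.2% to 26.8% in tumours and 1.75% to 4.86% in brain.

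Because the endothelial markers were lower in tumour libraries, levels were also set against the geometric mean of 10 endothelial genes, which was 13.9 to 35.2 in tumours and 42.5 to 80.4 in brain (FPKM + 1). Igfbp3 was at 1.04 to 1.96 times this mean in tumours and 0.0665 to 0.236 times in brain. Igfbp7 was at 1.74 to 4.29 times in tumours and 0.702 to 1.57 times in brain, without overlap between the tissues. Igfbp4, at 2.13 to 3.37 times in tumours and 1.10 to 4.21 times in brain, and Igf1r, at 0.315 to 1.14 times in tumours and 0.514 to 1.27 times in brain, overlapped. With all genes scaled in this way the averaged change of Igfbp7 was 1.04 (adjusted p = 0.0291, limma), while the median of all tested genes moved to 0.65. On this scale 4871 of 15586 tested genes passed averaged over the genotypes, 4509 of them higher in tumour. The share of all genes without overlap on this scale was not counted. Igfbp3 was higher in tumours with and without this scaling, whereas the directions of Igfbp4 and Igfbp7 depended on it. The scaling raises every gene in tumour relative to brain, because the endothelial mean was lower in each tumour library. It could therefore not have turned the direction of Igfbp3. The direction of Igf1r depended on it in knockout mice and averaged. In wild type mice Igf1r stayed lower in tumour, at -0.34 (adjusted p = 0.664, limma).

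**Figure D4:**
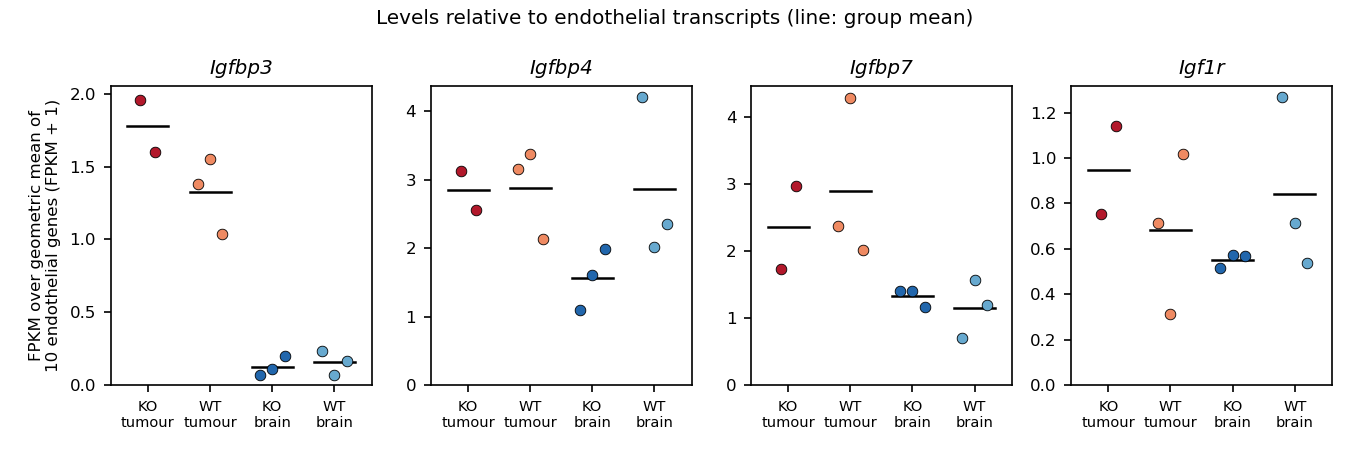
Level of Igfbp3, Igfbp4, Igfbp7 and Igf1r over the geometric mean of 10 endothelial genes (vertical axis, a ratio with no unit) in each library, with a line at the group mean. Tumour libraries lie above brain libraries for Igfbp3 and Igfbp7 and overlap them for Igfbp4 and Igf1r.

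Knockout was compared with wild type in each tissue to ask whether loss of Eltd1 goes with a change in these genes. None of the 8 passed in tumour, in brain or in the difference of the genotype effects between tumour and brain (adjusted p = 1 for each, limma), where 0.0192%, 0.00641% and 0.00641% of all tested genes passed. Adgrl4, which is Eltd1 itself, did not pass either, at -2.78 in tumour (SE 0.69, adjusted p = 0.903, limma) and -2.46 in brain (SE 0.62). A gene that did not pass here may therefore still differ between the genotypes. At an unadjusted p of 0.05, 1 of 8 passed in tumour and 0 in brain and in the difference, where 485, 678 and 495 of all genes did. In tumour all 8 log2 changes were above 0, between 0.37 and 1.63 with a median of 1.11, against a median of 0.16 over all tested genes. Igfbp2, Igfbp5, Igfbp6 and Igf1 were listed at 0 in wild type tumour 2, and with scaling to 10 endothelial genes Igfbp4 was at -0.00 and Igfbp7 at -0.27. Some lists of cell type markers also had medians above 0 in this contrast, of 0.72 for endothelial, 0.99 for fibroblast and 1.16 for neuron markers. Microglia and macrophage markers were at 0.47, mural markers at 0.35 and astrocyte markers at 0.30. Medians were below 0 for lymphocyte (-0.96), choroid plexus and ependyma (-0.59), glioma and neural progenitor (-0.12) and oligodendrocyte markers (-0.02). No marker of these lists passed. Mural markers summed to 79.7 to 82.2 FPKM in knockout tumours and 29 to 66.6 FPKM in wild type tumours, and fibroblast markers to 60.3 to 62.1 FPKM in knockout tumours and 17.8 to 40.3 FPKM in wild type tumours. The part of these cell types in the changes of the 8 genes was not tested. None of the 8 passed with the endothelial scaling or the neuron covariate. As none had passed without them, this cannot show such a part. Igf1r, at 1.17 (SE 0.45, 95% interval 0.18 to 2.17, unadjusted p = 0.0245, adjusted p = 1, limma), and Igfbp3, at 1.05 (SE 0.60, 95% interval -0.27 to 2.37), were higher in both knockout tumours than in any wild type tumour. Such separation was seen in 15.4% of all tested genes, and the change of Igfbp3 was 0.65 without wild type tumour 3. In brain the changes ran from -1.65 for Igf1 to 1.59 for Igfbp6, and all 8 genes overlapped between knockout and wild type brain, where 8.52% of all tested genes did not. The change of Igfbp6 rests on single libraries, at 0.42 without wild type brain 1 and 2.57 without wild type brain 3. The difference of the genotype effects was 1.32 for Igf1r (95% interval -0.01 to 2.66) and 2.24 for Igf1 (95% interval -0.36 to 4.83), so the tissue changes of Igf1r that passed in wild type and not in knockout mice were not shown to differ between the genotypes. For Igfbp4 the same difference was 1.10 (95% interval -0.22 to 2.42). Without wild type tumour 3 it was 0.65, and that of Igf1 was 1.25 without knockout tumour 2.

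Other genes linked to IGFs were followed in 6 lists of 56 genes, 48 of them tested. Beside genes of IGF signalling the lists hold 8 genes of proteins that share the binding protein domain. They also hold 3 genes of Igf2 mRNA-binding proteins. All 56 are called pathway genes here for short. In wild type mice 4 were higher and 3 lower in tumour, which is 14.6% of the 48 where 19.4% of all tested genes passed. In knockout mice 2 were higher and 1 lower, which is 6.25% where 7.09% of all genes passed, and averaged over the genotypes 7 were higher and 5 lower, which is 25% where 30.2% passed. The shares of the pathway genes were thus no higher than those over all genes. Their median log2 change was -0.07, 0.01 and -0.09 in these contrasts, and none passed between genotypes. The largest changes were those of Igf2bp2 and Igf2bp3, which bind mRNAs such as that of Igf2 inside the cell and are unrelated to the binding proteins above. Igf2bp2 had 17.0 and 32.5 FPKM in knockout tumours and 35.0, 85.0 and 25.4 FPKM in wild type tumours, against 1.6, 0.517 and 0.0558 FPKM in knockout brain and 0, 0 and 0.566 FPKM in wild type brain. Its log2 change was 3.93 in knockout mice (adjusted p = 0.00867) and 5.22 in wild type mice (adjusted p = 0.000603), and that of Igf2bp3 was 3.23 (adjusted p = 0.0129) and 3.72 (adjusted p = 0.00195), all by limma. Markers of glioma and neural progenitors summed to 189 to 236 FPKM in knockout tumours and 130 to 301 FPKM in wild type tumours, against 170 to 275 FPKM in knockout brain and 160 to 363 FPKM in wild type brain. These sums join markers that moved in opposite directions. Of the 7 markers, 3 were higher and 1 lower in tumour in wild type mice, and 3 higher and 0 lower in knockout mice. Averaged over the genotypes, 4 were higher and 2 lower. Their part in the changes of Igf2bp2 and Igf2bp3 was not tested.

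Among the other extracellular members of the pathway, none of the 3 tested ligands, receptors and binding proteins and none of the 5 tested binding protein proteases and their inhibitors passed between tissues. Igf2, the other ligand, had 0.343 and 4.32 FPKM in knockout tumours and 12.4, 8.02 and 17.1 FPKM in wild type tumours, against 18.8, 18.7 and 13.7 FPKM in knockout brain and 30.2, 2.72 and 11.1 FPKM in wild type brain. Knockout tumours were thus at the low end, though wild type brain 2 lay between them. Insr, the insulin receptor, had 22.1 and 20.9 FPKM in knockout tumours and 12.9, 20.0 and 11.2 FPKM in wild type tumours, against 15.7, 18.7 and 14.5 FPKM in knockout brain and 10.5, 11.2 and 12.9 FPKM in wild type brain. Igfbp1, which lies 3539 bases from Igfbp3 on chromosome 11, was listed at 0 in all 11 libraries. Of the 7 tested proteins that share the binding protein domain, Nov and Crim1 were lower in wild type tumours, by log2 changes of -2.92 (adjusted p = 0.0186, limma) and -2.02 (adjusted p = 0.0129, limma). Inside the cell, Irs2, an adaptor of the insulin and IGF receptors, was higher in wild type tumours at 2.01 (adjusted p = 0.0155, limma), as was Foxo4, a transcription factor that Akt inhibits, at 1.90 (adjusted p = 0.0469, limma). Averaged over the genotypes, Shc1, Rictor and Eif4ebp1 were also higher in tumours, at 1.25, 1.28 and 1.10, and Gsk3b was lower at -0.83.

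**Figure D5:**
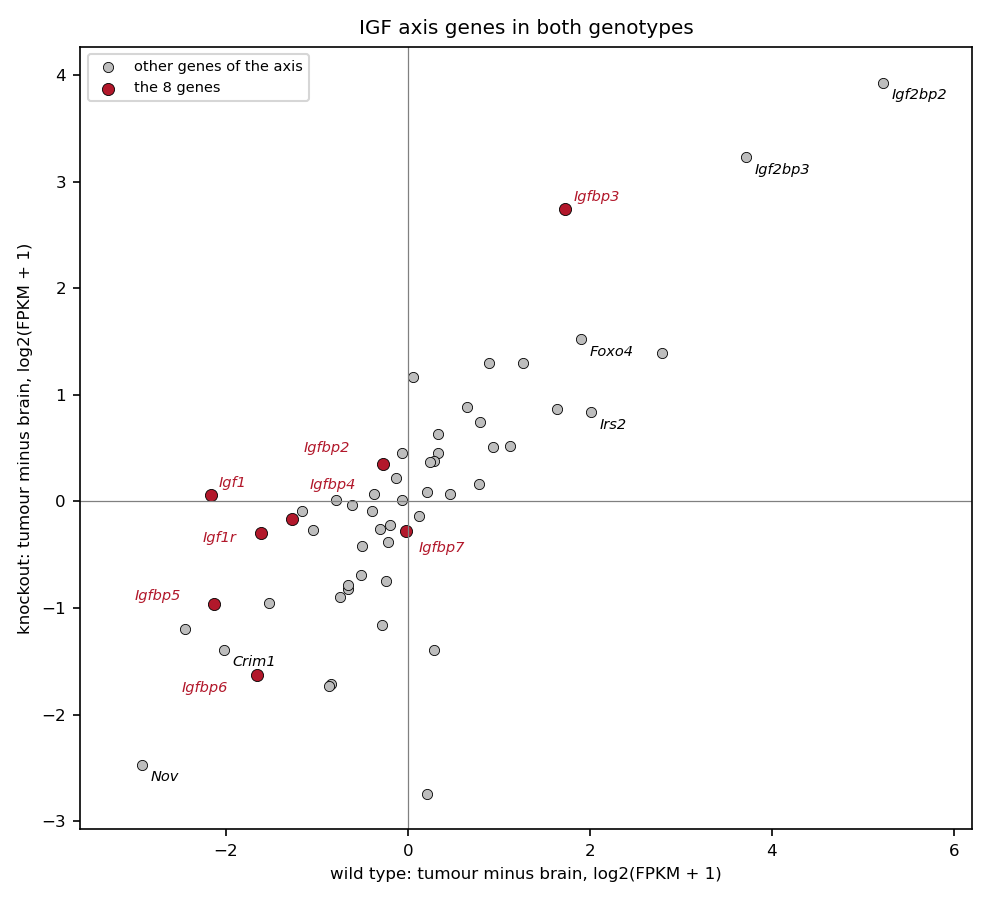
Log2 change of tumour minus brain in wild type (horizontal axis) and in knockout mice (vertical axis), on the log2(FPKM + 1) scale, for the 8 IGF genes (red) and the 48 tested pathway genes (grey). Igfbp3 lies at 1.73 and 2.74, below Igf2bp2 at 5.22 and 3.93.

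The genes whose pattern over the 11 libraries was most like that of each IGF gene were found by Pearson's r of log2(FPKM + 1) among 9926 genes, as a description, since all points share the 2 tissues and the same libraries. Mcm8, P3h2 and Slc38a6 were nearest to Igfbp3, each at r = 0.96. Ifitm2 and Krt222 were among the 3 genes nearest to Igf1r, at 0.96 and 0.95. For Igfbp4, whose nearest genes were Cib1, Rp9 and Ebp, r was 0.88, 0.88 and 0.87, and for Igfbp7 it was 0.93, 0.89 and 0.89 with Mcee, Tmtc4 and Chrac1. Igsf11, Ptpn5 and Ccdc181 each reached 0.98 with Igfbp5, Fgd1, Ssr2 and P2rx4 reached 0.98, 0.97 and 0.97 with Igfbp2, and Ggact, Dusp28 and Trip4 each reached 0.90 with Igfbp6. Igf1 was nearest to Tnnc1, Nme3 and Slc13a3, at 0.96, 0.89 and 0.89. The 8 genes lie on 6 chromosomes, and Igfbp2 and Igfbp5 are neighbours on chromosome 1, 5590 bases apart, with averaged tissue changes of 0.03 and -1.54.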

How the data were processed

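Each deposited file holds a single column of FPKM, per the file headers. The submitters' processing notes name TopHat2 2.1.1, Cufflinks 2.2.1 and the build GRCm38. Roles of the tools, the annotation and the use of strand were not given in the sources used here, and reads of Igf1 and its antisense gene cannot be told apart. Per the labels' protocols, ribosomal RNA was depleted before library preparation with a strand-preserving kit.

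From these files, 363 entries of 176 repeated symbols, none of them among the 8 genes, were summed. Steps of whole reads could not be recovered: between any pair of libraries, at most 8% of low genes shared the commonest ratio. Limma 3.58.1 in R 4.3.3 fitted 4 group means to log2(FPKM + 1) of 15607 genes, those reaching an FPKM of 1 in 2 or more libraries, with a variance trend and 7 residual degrees of freedom. Tests were two-sided, with Benjamini-Hochberg adjustment within each contrast and a threshold of 0.05. The procedure was tested on simulated data.

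All 8 genes are named. Pathway genes are named where they passed, up to 4 per list and direction, beside Igf2, Insr and Igfbp1, and likeness was read among genes with a mean FPKM of at least 5. These 3 were chosen after their values were seen. Values of some genes that this rule covers are left out. The 8 genes, the lists and the tests were chosen with earlier results of these data known. Replicates are separate mouse samples per the labels. Positions and promoters come from RefSeq tables of GRCm38.p6, where all 8 genes matched by symbol.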

Additional observations from a re-analysis of the deposited data

How the results depend on the processing

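No paired analysis was possible because replicate numbers only name the samples. Averaged over the genotypes, Igfbp3 passed in 23 of 24 alternatives, the exception being the neuron covariate. In wild type, Igfbp3 passed in 9, Igf1r in 19 and Igfbp4 in 6 of 25 alternatives; in knockout, Igfbp3 passed in 20 of 25, and averaged, Igf1r passed in 13 of 24. Of 1178 repeats for single genes, 1045 kept direction and call, 58 lost a call, 10 gained one and 69 changed sign, including 2 that also lost a call and 2 that gained one. Knockout minus wild type and the difference of genotype effects gave 0 called IGF genes in every alternative. In wild type the count of 3 became 1, Igf1r, with pseudocount 0.1 and with no filter. It became 0 with upper quartile scaling, the neuron covariate and only the groups compared, and leaving out each library gave 0 to 3. Without wild type tumours 2 and 3 together, only wild type tumour 1 is left in its group. The wild type changes were then 2.08 for Igfbp3, -1.16 for Igf1r, -0.83 for Igfbp4 and -2.12 for Igfbp5. The knockout count of 1 became 0 with the neuron covariate, and leaving out each library gave 0 to 1. The averaged count of 2 became 1 with upper quartile scaling and quantile normalization, 4 with weights per library and 0 with the neuron covariate, and leaving out each library gave 1 to 3. With scaling to 10 endothelial genes the averaged call of Igf1r was lost and Igfbp7 gained one. The causes were not tested. With a filter of 5 FPKM, Igf1 was not tested.

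Sign changes under scaling to 10 endothelial genes, which moved the median of all genes to 0.69 in wild type, 0.65 in knockout and 0.65 averaged, were as follows. In wild type, Igfbp2 was 0.61, Igfbp4 0.06 and Igfbp7 1.30. In knockout, Igf1r was 0.73, Igfbp4 0.89, Igfbp5 0.03 and Igfbp7 0.77. Averaged, Igf1r was 0.19, Igfbp4 0.47 and Igfbp7 1.04. For knockout minus wild type, Igfbp4 was -0.00 and Igfbp7 -0.27 in tumour, and Igfbp3 -0.26 and Igfbp5 -0.06 in brain. Upper quartile scaling gave Igfbp7 0.09 in wild type and 0.01 averaged, Igfbp4 0.05 in knockout and Igf1r 0.07 for knockout minus wild type in brain. Quantile normalization gave Igfbp2 0.17 and Igfbp7 0.07 in wild type, Igf1 -0.07 in knockout, Igfbp3 -0.14 between genotypes in brain and Igfbp6 -0.10 in the difference of genotype effects. The neuron covariate gave Igfbp2 1.74 and Igfbp5 0.68 in wild type, Igfbp5 0.73 in knockout and 0.70 averaged, and differences of genotype effects of -0.18 for Igfbp2, -0.07 for Igfbp6 and 0.29 for Igfbp7. Igf1 in knockout was -0.06 with pseudocount 0.1 and -0.18 with weights per library, which gave Igfbp2 0.09 in wild type. Without wild type tumours 2 and 3 together, Igfbp2 was 0.56 and Igfbp7 0.05 in wild type, Igf1 -0.07 for knockout minus wild type in tumour, and the differences of genotype effects were -0.21 for Igfbp2 and -0.61 for Igfbp6.

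Leaving out each library in turn, the results that changed sign had these ranges. For tumour minus brain in wild type they were -1.53 to 0.83 for Igfbp2 and -0.46 to 0.44 for Igfbp7. In knockout they were -0.92 to 1.04 for Igf1 and -0.48 to 0.16 for Igfbp4. Averaged they were -0.59 to 0.59 for Igfbp2 and -0.37 to 0.08 for Igfbp7. For knockout minus wild type in tumour they were -0.40 to 1.57 for Igf1 and -0.10 to 0.80 for Igfbp7. In brain they were -0.31 to 0.06 for Igf1r, -0.45 to 1.51 for Igfbp2 and -0.36 to 0.25 for Igfbp3. For the difference of genotype effects they were -0.48 to 1.87 for Igfbp2, -1.14 to 1.2 for Igfbp6 and -0.72 to 0.18 for Igfbp7.

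Calls over all genes were 39.7%, 67.7% and 41.6% higher in tumour in wild type, knockout and averaged; the split was 52.8%, 85.4% and 51.8% with upper quartile scaling, 52.2%, 63.3% and 50.1% with quantile normalization and 93.6%, 98.2% and 92.6% with endothelial scaling. Counts over all genes that moved by more than 1.5 times were these. For tumour minus brain in wild type the 3025 called genes became 1906 with upper quartile scaling, 4929 with weights per library, 1 with the neuron covariate, 614 with only the groups compared and 1818 to 1953 without single libraries. In knockout the 1106 called genes became 710 with pseudocount 0.1, 1822 with quantile normalization, 1767 with scaling to 10 endothelial genes, 4124 with weights per library, 119 with the neuron covariate, 2802 with only the groups compared, 2756 without wild type tumour replicates 2 and 3 together and 147 to 2009 without single libraries. Averaged the 4712 called genes became 76 with the neuron covariate and 2573 without knockout tumour replicate 1. For knockout minus wild type in tumour the 3 called genes became 14 with no filter on low values, 1 with a filter of 5 FPKM, quantile normalization and the neuron covariate, 62 with weights per library, 0 with only the groups compared, 19 without wild type tumour replicates 2 and 3 together and 0 to 29 without single libraries. In brain the 1 called gene became 0 with pseudocount 0.1, filter of 5 FPKM, scaling to 10 endothelial genes, the neuron covariate, only the groups compared and without wild type tumour replicates 2 and 3 together and 0 to 4 without single libraries. For the difference of genotype effects the 1 called gene became 0 with no filter on low values, quantile normalization, no variance trend and the neuron covariate, 4 with weights per library, 8 without wild type tumour replicates 2 and 3 together and 0 to 13 without single libraries.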
